A study of Homo sapiens with 6 samples.

Results

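The casein kinase 1 (CK1) genes CSNK1A1, CSNK1D, CSNK1E, CSNK1G1, CSNK1G2 and CSNK1G3 were followed in RNA-seq gene counts from the human cell line Huh7, an established line from a hepatocellular carcinoma. The members were chosen by gene symbol, with earlier results of these data known. All 6 were found once each among the 58735 genes of the table. The cells carried a short hairpin RNA against ITGB5, the integrin beta 5 subunit (3 libraries), or a control hairpin (3 libraries), and all 6 libraries came from the same line in the same culture medium. The sources used here give neither the time after hairpin delivery nor the sequence or number of the hairpins. They also leave unsaid whether replicate libraries are separate cultures, so p-values cover only the spread from library to library, and that spread may be technical. The table's column codes S and NC were read as the ITGB5 hairpin and the control hairpin, which the labels do not spell out. Libraries held 15777922 to 18011313 counts. In bulk RNA, fewer cells that make a transcript and less of it per cell cannot be told apart.

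CK1 enzymes are monomeric serine/threonine kinases that are active without a second messenger and often act on sites primed by an earlier phosphorylation. CSNK1A1 encodes CK1 alpha, which primes beta-catenin for GSK3 and so for degradation. CSNK1D and CSNK1E encode the delta and epsilon isoforms, which phosphorylate the clock proteins PER and the WNT adaptor Dishevelled and carry a long inhibitory tail. The gamma isoforms of CSNK1G1, CSNK1G2 and CSNK1G3 are held at membranes by lipid groups and phosphorylate the WNT co-receptor LRP6. The series title names CSNK1A1 as a kinase of ITGB5 in drug-treated hepatocellular carcinoma. The design allows the reverse comparison, namely whether the mRNA of this kinase and of its relatives differed when ITGB5 was knocked down.

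The 6 coding sequences are related to different degrees. Aligned in all 15 pairs, they were most alike between CSNK1D and CSNK1E (77.0% of aligned bases identical). CSNK1G1 followed with CSNK1G3 (72.0%) and with CSNK1G2 (71.3%), and the least alike were CSNK1D with CSNK1G3 and CSNK1E with CSNK1G3 (50.4% each). The stretch shown holds 30 bases without gaps, starts at a CSNK1A1 codon and has the most positions shared by all 6 members. Single pairs may be closer elsewhere, which was not searched. Capitals mark bases that differ from CSNK1A1, and sequences are from GENCODE 29 transcripts (GRCh38), 5′ to 3′ on the coding strand.
CSNK1A1: atggatcttctgggacctagcctcgaagac
CSNK1D: atggaGctGctgggGccAagcctGgaGgac
CSNK1E: atggaGctGctgggGcctagcctcgaGgac
CSNK1G1: CtggaGctCctTggCcctagcTtGgaGgac
CSNK1G2: CtggaGctGctgggGccCagcctGgaGgac
CSNK1G3: CtggaActGctgggacctagTTtGgaagac

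These coding stretches lie at chr5:149525105-149525134 in exon 3 of CSNK1A1 (minus strand) and chr17:82255492-82255521 in exon 3 of CSNK1D (minus). The others are chr22:38302924-38302953 in exon 4 of CSNK1E (minus), chr15:64216625-64216654 in exon 5 of CSNK1G1 (minus), chr19:1978658-1978687 in exon 5 of CSNK1G2 (plus) and chr5:123573449-123573478 in exon 4 of CSNK1G3 (plus). Of the 30 positions, 20 were the same in all 6 members. In this stretch the closest pairs, CSNK1D with CSNK1E and CSNK1D with CSNK1G2, differed at 2 positions. No window of 50 bases in any annotated transcript of a member was present in another member. Windows were searched in the sense direction only, so sequence shared with opposite-strand genes, such as SLC16A3 for CSNK1D (482 exon bases), was not counted. Of CSNK1G2 and CSNK1G3 windows, 0% were found in this way in any other annotated gene, and of CSNK1D windows 0.739%. The shares were higher for CSNK1A1 (36.5%, of which AC021078.1 alone held 35.7%), CSNK1E (20.5%) and CSNK1G1 (15.3%), whose overlapping neighbours are described below with their counts.

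ITGB5 itself was lower in all 3 libraries of its hairpin, and the fall of its mRNA was partial. It lay at 205, 214 and 217 CPM (each library's counts scaled to a common total) with the control hairpin and at 173, 181 and 174 CPM with the ITGB5 hairpin. The groups did not overlap. The change was -16.8% (95% interval -20.5% to -13.0%, edgeR quasi-likelihood test, Benjamini-Hochberg adjusted p = 2.13e-09), and an exact permutation test of 3 libraries against 3 gave the smallest two-sided p it allows, 0.1. Hepatoma markers differed widely in level: ALB lay at 852 FPKM (CPM per kilobase of gene length) in the controls and AFP at 259.5 FPKM. SERPINA1 lay at 63.95, TF at 35.5, APOA1 at 20.16 and TTR at 3.73 FPKM in the controls. Of these 6 markers 5 rose (against 8.31% of all genes tested), and their summed level was 1215 to 1247 FPKM in the controls and 1403 to 1430 FPKM with the ITGB5 hairpin. Blood and immune markers (3 genes) summed to at most 0.151 FPKM and endothelial markers (3 genes) to at most 0.726 FPKM in any library. Of 4 fibroblast and stellate markers, LUM rose (log2 change 0.22). It lay at 48.45 FPKM in the controls, above TF, APOA1 and TTR. The sum of these 4 markers was 60.6 to 62.9 FPKM in the controls and 70.2 to 71.5 FPKM with the hairpin. The part of these marker shifts in the results below was not tested.

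None of the 6 CK1 genes passed the test, and in each of them the groups overlapped. By edgeR 0 of 6 members had an adjusted p under 0.05, against 15.1% of the 16577 genes tested and 23.1% of the 6753 genes with a mean count in the range of the members (377 to 3151). The count was also 0 at an unadjusted p under 0.05, by DESeq2 and by limma-trend. Groups did not overlap for 0 of 6 members, against 28.5% of genes tested and 38% of genes in that count range. The median log2 change of the 6 was 0.003, and that of all genes was 0. The 95% interval of the change lay within 1.2-fold of no change for 6 of 6 members, against 41.1% of genes tested. In that count range 75.9% of genes had such an interval.

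**Figure D1:**
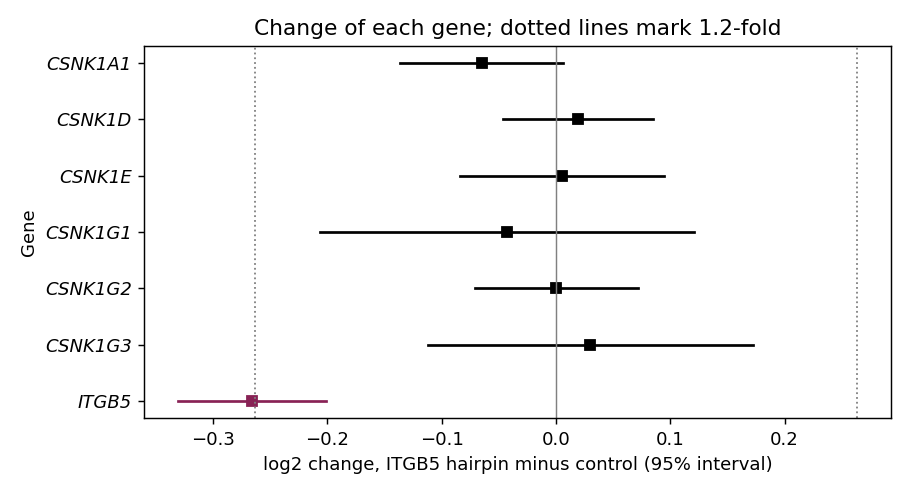
Log2 change of each CK1 gene and of ITGB5 (squares) with its 95% interval (lines), ITGB5 hairpin minus control, 3 libraries per group; dotted lines mark 1.2-fold. All 6 CK1 intervals hold 0 and lie inside the dotted lines, the widest being that of CSNK1G1 (-0.21 to 0.12), while ITGB5 lies at -0.27.

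CSNK1A1, the CK1 alpha gene of the series title (ENSG00000113712, chr5:149492197-149551552, minus strand), had the lowest fitted change of the family. Control libraries held 146, 142 and 152 CPM, and ITGB5 hairpin libraries 144, 139.6 and 137 CPM. Control replicate 2 was lower than hairpin replicate 1, so the groups overlapped by that pair of libraries, and the highest library was a control and the lowest a knockdown. The means were 147 CPM ± 5.02 and 140.1 CPM ± 3.96 (SD, n = 3 each). The change was -4.40% (log2 -0.06, SE 0.036), with a 95% interval of -9.02% to 0.453% (edgeR adjusted p = 0.254). An exact permutation test gave p = 0.2. No change lay just inside the interval, and leaving out 1 library could move it outside. Without shITGB5 replicate 1 the log2 change was -0.09 (interval -0.1693 to -0.0086, edgeR adjusted p = 0.153), and without shcontrol replicate 2 it was -0.09 (interval -0.1717 to -0.0096, edgeR adjusted p = 0.155). Both of these intervals left out no change and held a larger fall than the interval from all libraries did. Neither adjusted p passed. The libraries left out in these fits are the pair by which the groups overlapped. With any other library left out, no change stayed inside the interval. The log2 change was then -0.06 (shITGB5 replicate 2) and -0.05 (shITGB5 replicate 3, interval -0.1269 to 0.0345). It was -0.07 (shcontrol replicate 1) and -0.04 (shcontrol replicate 3, interval -0.122 to 0.038). In 68.0% of genes tested the fitted change was larger in size than that of CSNK1A1 with all libraries, and in 20% larger than that of ITGB5. These shares take no account of error, and the median SE over all genes tested was 0.0889.

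CSNK1D, the CK1 delta gene (ENSG00000141551, chr17:82239023-82273731, minus strand), showed a small positive change well inside the spread. It held 187, 180.5 and 184 CPM in the controls and 188, 192 and 179 CPM with the ITGB5 hairpin. The knockdown libraries included both the highest and the lowest value of the 6. The change was 1.35% (log2 0.02, SE 0.033, interval -3.14% to 6.06%, edgeR adjusted p = 0.78), the narrowest interval of the family.

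CSNK1E, the CK1 epsilon gene and closest relative of CSNK1D (ENSG00000213923, chr22:38290691-38318084, minus strand), was read at about the same level in each group. Controls held 88.6, 83.6 and 90.1 CPM, and the knockdown libraries 90.6, 90.8 and 81.8 CPM. Hairpin replicate 3 was the lowest of the 6 while the other 2 hairpin libraries were the highest, as in CSNK1D, where replicate 3 was also lowest. The change was 0.373% (log2 0.01, SE 0.045, interval -5.67% to 6.80%, edgeR adjusted p = 0.96). The ratio of CSNK1D to CSNK1E in FPKM ranged from 1.16 to 1.24 over the 6 libraries.

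Among the membrane-bound gamma isoforms, CSNK1G2 (ENSG00000133275, chr19:1941149-1981338, plus strand) had the smallest change in the family. It held 175, 163 and 183 CPM in the controls and 167, 181 and 173 CPM with the ITGB5 hairpin, and every hairpin library lay inside the range of the controls. Both means were 174 CPM (SD 9.82 in the controls and 6.93 with the hairpin, n = 3 each). The change was 0.0289% (log2 0.0004, SE 0.036, interval -4.78% to 5.08%, edgeR adjusted p = 0.997). In 99.8% of genes tested the fitted change was larger in size, a share that again takes no account of error.

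CSNK1G3 (ENSG00000151292, chr5:123512099-123617045, plus strand) is a gamma gene of lower count. Its control libraries held 29.2, 28.8 and 30.1 CPM, and its knockdown libraries 29.3, 29.4 and 31.3 CPM. Hairpin replicate 3 was the highest library, opposite to its place in CSNK1D and CSNK1E. The change was 2.10% (log2 0.03, SE 0.071, interval -7.49% to 12.7%, edgeR adjusted p = 0.854).

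CSNK1G1 (ENSG00000169118, chr15:64165517-64356259, minus strand) had the lowest counts of the family, 341 to 400 per library, and so the widest interval. Controls held 21.5, 22.5 and 23.6 CPM and the knockdown libraries 22.2, 20.6 and 22.7 CPM, with hairpin replicate 2 the lowest. The change was -2.94% (log2 -0.04, SE 0.082, interval -13.3% to 8.71%, edgeR adjusted p = 0.81). With all libraries, a fall as large as the ITGB5 estimate (-16.8%) lay outside the interval of each of the 6 members, CSNK1G1 included. For CSNK1G1 the margin was small, since the ITGB5 interval itself reached -13.0%. Without shITGB5 replicate 3 the CSNK1G1 interval (log2 -0.2617 to 0.1162) included the ITGB5 change of that fit (-0.2587).

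The spread between libraries differed among members. For CSNK1G1 the coefficient of variation was 4.70% in the controls and 4.95% with the hairpin, under the 5.16% and 5.13% that counting error alone gives at these counts. CSNK1G3 also lay below its counting error (2.40% against 4.52% in the controls, 3.82% against 4.38% with the hairpin). For CSNK1G2 the spread was larger than counting error, 5.65% against 1.86% in the controls and 3.99% against 1.82% with the hairpin, and CSNK1E showed 5.86% against 2.56% with the hairpin.

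Levels between members were compared in FPKM, with the gene length of the table (all annotated exons of a gene merged). CSNK1G2 was the highest in every library (42.9 to 48.0 FPKM over the 6). CSNK1A1 followed at 17.7 to 19.7 FPKM, CSNK1D at 16.2 to 17.4 FPKM and CSNK1E at 13.1 to 14.5 FPKM. CSNK1G3 lay at 5.75 to 6.26 FPKM and CSNK1G1 at 2.12 to 2.43 FPKM. This order was the same in all 6 libraries, and no neighbours in it overlapped, although CSNK1A1 and CSNK1D came close.

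**Figure D2:**
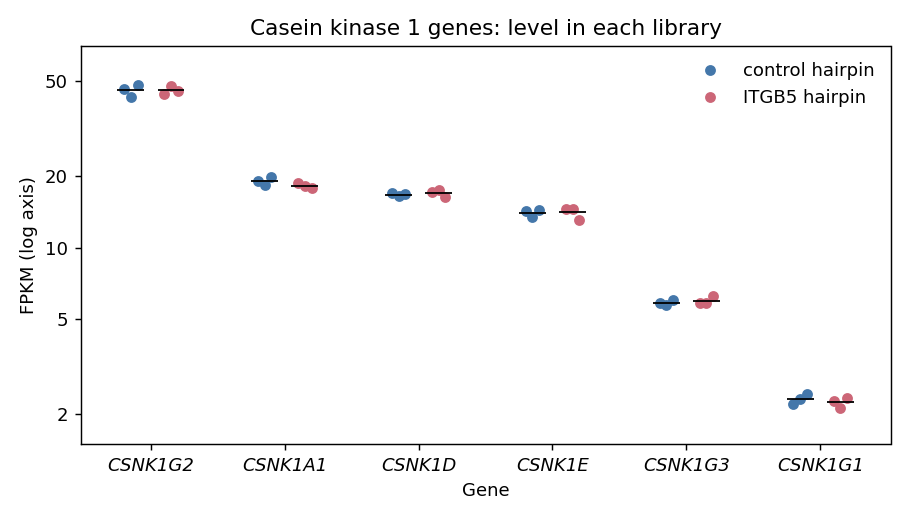
FPKM of each CK1 gene (log axis) in the 3 control libraries and the 3 ITGB5 hairpin libraries; each point is a library and each bar a group mean. CSNK1G2 lies highest (42.9 to 48.0) and CSNK1G1 lowest (2.12 to 2.43), and in each gene the points of the 2 groups overlap.

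That order depends on the length used. Merged exons come to 7714 bases for CSNK1A1, 11024 for CSNK1D, 6246 for CSNK1E, 9712 for CSNK1G1, 3804 for CSNK1G2 and 5000 for CSNK1G3. The longest basic coding transcript is shorter: 6067, 3712, 2791, 8179, 2918 and 4635 bases in the same order. With that length, chosen after the data were seen, the control means became 59.5 FPKM for CSNK1G2, 49.6 for CSNK1D, 31.3 for CSNK1E, 24.2 for CSNK1A1, 6.34 for CSNK1G3 and 2.75 for CSNK1G1. CSNK1A1 thus moved from the second place to the fourth, and CSNK1G2, CSNK1G3 and CSNK1G1 kept theirs between these lengths. The shortest basic coding transcript is far shorter for some members (620 bases for CSNK1A1, 1580 for CSNK1D and 2918 for CSNK1G2), and the order at that length was not computed. The table sums all transcripts of a gene, so the abundance of single splice forms was not measured.

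The make-up of CK1 mRNA by member was alike in both groups. CSNK1G2 took 44.1% ± 0.735 of the family's summed FPKM in the controls and 44.3% ± 1.18 with the ITGB5 hairpin (SD, n = 3 each). CSNK1A1 took 18.4% ± 0.165 and 17.6% ± 0.576, a difference of -0.73 percentage points, larger than either SD, but the groups overlapped, with 18.26% in hairpin replicate 1 and 18.21% in control replicate 1. CSNK1D took 16.1% ± 0.486 and 16.4% ± 0.322, and CSNK1E 13.5% ± 0.0831 and 13.6% ± 0.603. CSNK1G3 took 5.68% ± 0.109 and 5.82% ± 0.336, and CSNK1G1 2.24% ± 0.108 and 2.19% ± 0.158. The sum of the 6 was 104, 99.1 and 107 FPKM in the controls and 102 (102.5), 106 and 101 FPKM with the hairpin, so the groups overlapped and their means differed by -0.478%. No test was made of shares or sums.

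**Figure D3:**
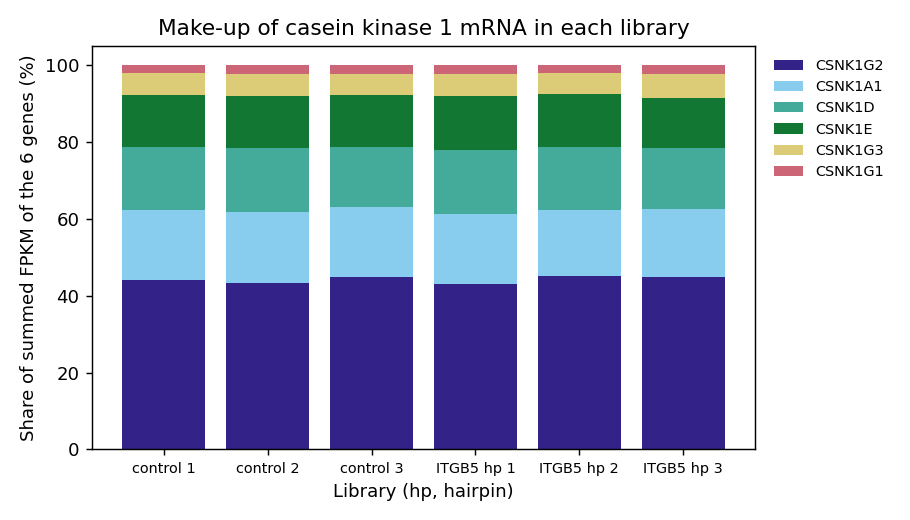
Share (%) of the summed FPKM of the 6 CK1 genes taken by each gene in each library, stacked to 100; hp stands for hairpin. CSNK1G2 takes 43.0% to 45.1% in every library and CSNK1G1 2.01% to 2.34%.

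Ratios between members within a library cancel the scaling between libraries. Of the 15 ratios, 2 did not overlap between groups, both with CSNK1A1 as numerator. CSNK1A1 to CSNK1D in FPKM was 1.12, 1.12 and 1.18 in the controls and 1.09, 1.04 and 1.09 with the ITGB5 hairpin. CSNK1A1 to CSNK1G3 was 3.25, 3.19 and 3.26 in the controls and 3.19, 3.08 and 2.83 with the hairpin, where the closest libraries were 3.195 and 3.194. The other 13 ratios overlapped. The ratios share members, so they are not independent, and no test was made of them. Of single genes tested, 28.5% had groups that did not overlap in CPM, which is not a background for ratios. No such share was computed for ratios of other genes.

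Reads of overlapping genes and gene copies could move between a member and its neighbour in the table. How reads in shared exons were counted is not given, so the FPKM levels of members with shared exons are uncertain too. AC021078.1, a noncoding gene on the same strand at chr5:149494314-149504670, shares 2886 exon bases with CSNK1A1, and its counts equalled 15.9% of those of CSNK1A1. Its mean was 22.6 CPM ± 0.735 under the control hairpin and 22.8 CPM ± 2.45 under the ITGB5 hairpin (edgeR adjusted p = 0.958). With its counts added, CSNK1A1 changed by -0.05 (log2, edgeR adjusted p = 0.34). SLC16A3, a lactate transporter gene on the opposite strand, shares 482 exon bases with CSNK1D and carried 66.4% of its counts (log2 change -0.01, edgeR adjusted p = 0.949). The antisense gene AC132872.3 carried 1.02% of the counts of CSNK1D (log2 change -0.39, edgeR adjusted p = 0.445). The library kit keeps strand, but the sources used here do not give the strand setting of the counting, so counts of opposite-strand pairs are uncertain.

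The remaining copies were almost silent in the table. The intronless CSNK1A1L had a count of 0 in all 6 libraries, which allows up to 0.167 to 0.19 CPM per library (3 counts, counting error only). The pseudogenes CSNK1A1P1 and CSNK1A1P3 had 5 counts and 1 count in all, and CSNK1G2P1 had 13. The read-through gene TPTEP2-CSNK1E, which shares 1316 exon bases with CSNK1E on the same strand, had 4 counts against 8937 for CSNK1E. AC087632.1, which shares 1582 exon bases with CSNK1G1, had 1 count against 2264. CSNK1G2-AS1, antisense to CSNK1G2, had 56 counts against 17715 and shares no exon base.

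An earlier look at these libraries had found 7-base words common in the 3′ untranslated regions (UTRs) of genes that fell (AGACCAA or GACCAAA) or rose (TCGGAGA or CGGAGAA). They were chosen on the same data, so their presence in CK1 genes is a description. In the longest basic coding transcript, 4 of the 6 members hold one of the 4 words, against 2666 of 13311 tested coding genes. Each site is shown with 10 flanking bases on either side, the word in capitals, because these are the words the earlier look had linked to falls and rises.
CSNK1G1: catgagctccAGACCAAatcccaggcc
CSNK1G3: tacagtatttGACCAAActtgtgtgtc
CSNK1D: cttgaggcccTCGGAGAgcagttaggg
CSNK1E: cgggtccgtgTCGGAGAagtgacaggt

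The words lie at chr15:64166705-64166711 (CSNK1G1, exon 12, minus strand), chr5:123616291-123616297 (CSNK1G3, exon 13, plus), chr17:82244037-82244043 (CSNK1D, exon 9, minus) and chr22:38291611-38291617 (CSNK1E, exon 11, minus). AGACCAA was found on the transcript strand in 11.4% of the 13311 UTRs, GACCAAA in 11.6%, TCGGAGA in 2.04% and CGGAGAA in 2.40%. In CSNK1G1 the site also holds the shifted GACCAAA, and in CSNK1E the shifted CGGAGAA. The 3′ UTRs of CSNK1G1 (6414 bases), CSNK1G3 (2644) and CSNK1D (2114) are longer than the median of 1287, and that of CSNK1E has 1279 bases. None of these 4 genes passed the test, with log2 changes of -0.04 (CSNK1G1), 0.03 (CSNK1G3), 0.02 (CSNK1D) and 0.01 (CSNK1E). CSNK1A1 (3′ UTR of 4656 bases) and CSNK1G2 (1135 bases) hold none of the 4 words in the longest basic coding transcript.

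Relatives of the family were listed with earlier results of these data known. Of 6 genes of the wider CK1 superfamily, 4 were tested and 0 passed, against 15.1% of all genes tested (edgeR, with 0 also at an unadjusted p under 0.05, by DESeq2 and by limma-trend). VRK2, a membrane-bound relative, changed by -0.09 (log2, SE 0.068), and VRK1, a nuclear kinase of chromatin, by 0.02 (SE 0.089). FANCL, on the opposite strand to VRK2 and sharing exon bases with it, had 108% of the counts of VRK2. Of 4 kinases that share only the name casein kinase, 0 passed (against the same 15.1%), 1 of them (CSNK2A1) at an unadjusted p under 0.05, and 0 by DESeq2 and by limma-trend. CSNK2A1, a catalytic subunit of protein kinase CK2, held 203, 206 and 207 CPM in control libraries and 199.7, 188 and 194 CPM in knockdown libraries. Its groups did not overlap (log2 change -0.08, SE 0.031, edgeR adjusted p = 0.0658), and it passed without shITGB5 replicate 1 (0.0322) and with a mean CPM of at least 5 (0.041). CSNK2A2, the other catalytic subunit, changed by 0.01 (SE 0.049).

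Genes that anchor or regulate CK1 enzymes, also listed with earlier results of these data known, fell where they passed the test. Of 11 such genes 7 were tested, and of these 4 fell, 0 rose and 3 did not pass, against 6.74% of genes tested that fell. Calls are more common at higher counts: of genes with a mean count of 377 to 3151, 23.1% were called in either direction. DDX3X lies above that range and FAM83B below it. The median log2 change of the 7 was -0.13. DDX3X, an RNA helicase known to stimulate CK1 epsilon in WNT signalling, fell from 785, 812 and 794 CPM to 735, 709 and 727 CPM (log2 -0.14, SE 0.023, edgeR adjusted p = 3.70e-06). FAM83D, which anchors CK1 alpha at the mitotic spindle, fell from 109, 103 and 105 CPM to 93.88, 93.97 and 94.36 CPM (log2 -0.17, SE 0.040, edgeR adjusted p = 0.00145). In both genes the groups did not overlap, as was so in either direction for 28.5% of all genes tested.

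The other 2 falls in that list were less stable, although their groups did not overlap either. AKAP9, a centrosomal scaffold that binds CK1 delta and epsilon, fell from 139 CPM ± 4.32 to 127 CPM (127.5) ± 5.61 (log2 -0.12, edgeR adjusted p = 0.0136). It missed the threshold without shITGB5 replicate 2 (0.0617), shITGB5 replicate 3 (0.0912) or shcontrol replicate 2 (0.112). CRBN, the ubiquitin ligase receptor that lenalidomide directs to CK1 alpha, fell from 53.3 CPM ± 1.52 to 47.5 CPM ± 2.91 (log2 -0.17, edgeR adjusted p = 0.0339). It missed the threshold with DESeq2 (0.0684), with no low-count filter (0.0682) and without shITGB5 replicate 2 (0.225), shcontrol replicate 1 (0.152) or shcontrol replicate 2 (0.066). TRNT1, which shares exon bases with CRBN from the opposite strand, had 75.6% of its counts.

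Partners of CK1 in WNT signalling, also listed with earlier results of these data known, moved in both directions. Of 14 genes of the beta-catenin destruction complex and the WNT receptor complex, 13 were tested. Of these 3 rose, 3 fell and 7 did not pass, against 8.31% of genes tested that rose and 6.74% that fell. Of genes with a mean count of 377 to 3151, 23.1% were called in either direction. CTNNB1, LRP5 and FBXW11 lie above that range and AXIN2 below it. The median log2 change of the 13 was -0.009. The scaffold APC fell from 76.0 CPM ± 1.98 to 66.2 CPM ± 0.865 (log2 -0.20, edgeR adjusted p = 0.00116). FBXW11, a receptor of the ubiquitin ligase that takes up beta-catenin, fell from 205 CPM ± 3.15 to 182 CPM ± 3.69 (-0.17, 2.93e-05 by edgeR). AXIN1, the scaffold of the complex that holds CK1 alpha, rose from 43.1 CPM ± 0.319 to 49.5 CPM ± 3.94 (0.20, edgeR adjusted p = 0.013), but not without shITGB5 replicate 2 (0.162). LRP6, the co-receptor phosphorylated by CK1 gamma, rose from 112 CPM ± 4.72 to 123 CPM ± 1.27 (0.13, edgeR adjusted p = 0.0157). That rise missed the threshold without shITGB5 replicate 3 (0.0593), shcontrol replicate 1 (0.104) or shcontrol replicate 3 (0.104). The remaining calls were LRP5, which rose (0.10, edgeR adjusted p = 0.00754), and CTNNB1, the beta-catenin gene, which fell (-0.07, edgeR adjusted p = 0.037). LRP5 and CTNNB1 were not followed through the alternatives.

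**Figure D4:**
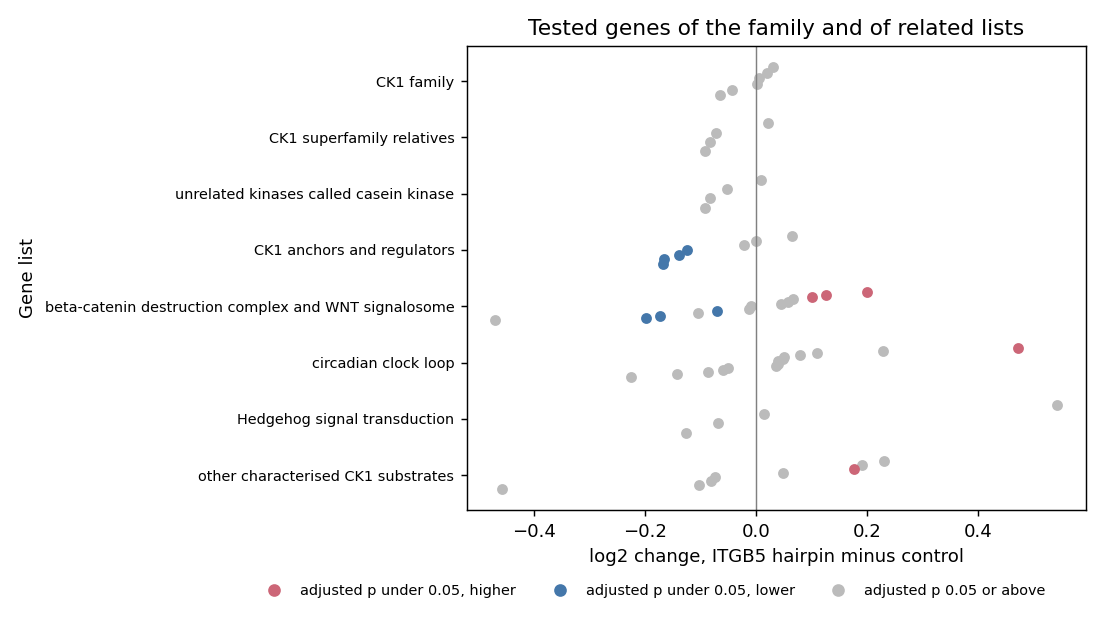
Log2 change (ITGB5 hairpin minus control) of each tested gene of the CK1 family and of 7 lists of related genes; colour gives the edgeR call. The 6 CK1 genes lie between -0.06 and 0.03 with no call, while 4 anchors and regulators are called lower.

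Lists for other processes in which CK1 acts were short, and each held at most 1 call. Of 15 circadian clock genes 14 were tested, and 1 rose, 0 fell and 13 did not pass, against 8.31% of genes tested that rose and 6.74% that fell, with a median log2 change of 0.039. BHLHE40, a repressor of clock transcription that also responds to many stimuli, rose from 60.0, 54.2 and 62.5 CPM to 76.3, 80.8 and 87.7 CPM (log2 0.47, SE 0.052, edgeR adjusted p = 1.14e-10). The CK1 substrates PER1 and PER2, chosen after their values were seen, changed by 0.05 (SE 0.054) and 0.04 (SE 0.088). Of 6 Hedgehog genes 4 were tested and 0 passed by edgeR (against 15.1% of genes tested), DESeq2 or limma-trend, with 1 (GLI1) at an unadjusted p under 0.05. The receptor SMO changed by 0.01 and the inhibitor SUFU by -0.13 (SE 0.070).

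Among 9 other characterised CK1 substrates 8 were tested, of which 1 rose, 0 fell and 7 did not pass, against 8.31% of genes tested that rose and 6.74% that fell (median log2 change -0.013). YAP1, the transcriptional co-activator that CK1 delta and epsilon mark for degradation, rose from 71.6 CPM ± 4.04 to 80.9 CPM ± 2.50 (log2 0.18, edgeR adjusted p = 0.00504), though not without shcontrol replicate 1 (0.0739). Of the genes in the series title besides CSNK1A1, EGFR lay lower (log2 -0.09, edgeR adjusted p = 0.00272), and EPS15, which did not pass, changed by -0.01 (SE 0.059).

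The genes whose pattern over the 6 libraries was most like that of CSNK1A1 were CCDC141 (Pearson r = 0.992), COA1 (0.991) and PSMD10 (0.983), in log2 CPM among 9722 protein-coding genes with a mean CPM of at least 10. Control and knockdown means were 21.1 CPM ± 1.77 and 18.6 CPM ± 1.09 for CCDC141, 59.3 CPM ± 1.71 and 57.0 CPM ± 0.982 for COA1, and 70.8 CPM ± 2.17 and 67.8 CPM ± 1.97 for PSMD10 (SD, n = 3 each). With 6 libraries, 80 of the 9722 genes reached an r over 0.9, and the points share their library scaling, so these are a description.

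The value for each member under the alternatives stayed small. Over 82 combinations of member and alternative, 0 passed the threshold. The outermost 95% interval bounds over all of them were a fold of 0.834 and 1.13 for CSNK1G1, 0.888 and 1.03 for CSNK1A1, and 0.891 and 1.15 for CSNK1G3. For CSNK1D they were 0.951 and 1.09, for CSNK1E 0.915 and 1.11, and for CSNK1G2 0.92 and 1.08. CSNK1A1 and CSNK1G1 kept a negative sign throughout, whereas CSNK1D, CSNK1E, CSNK1G2 and CSNK1G3 crossed 0 in some alternatives.

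**Figure D5:**
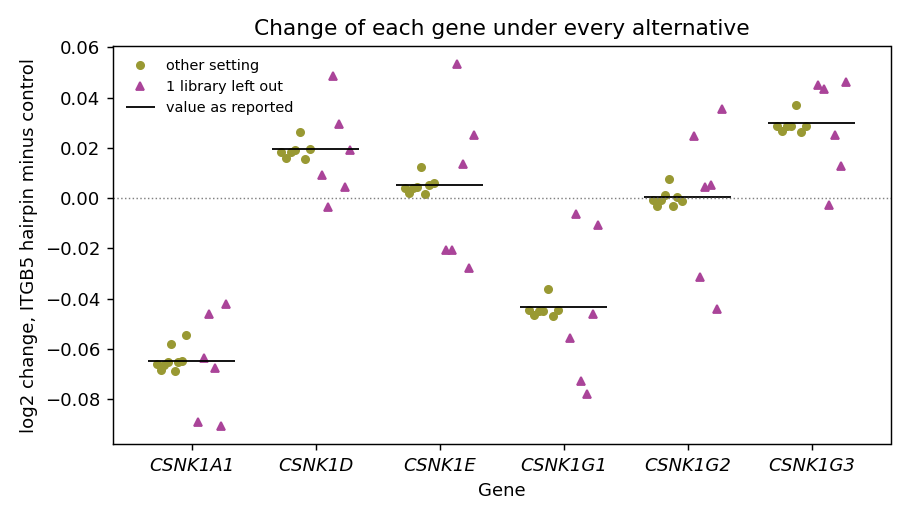
Log2 change of each CK1 gene (ITGB5 hairpin minus control) as reported (line), with 1 library left out (triangles) and with other settings (circles). CSNK1A1 ranges from -0.09 to -0.04, and the outermost values of every gene come from leaving out a library.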

How the data were processed

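RNA-seq of 6 Huh7 libraries was analysed. Per the labels' protocols the kit was strand-keeping and started from total RNA. The authors deposited 1 table of gene counts, and 100% of its values are whole numbers although its name speaks of FPKM. Its gene length, deposited in bases, was used for FPKM. Codes S and NC were read as ITGB5 and control hairpin. The sources used here do not give the aligner, the counter or its strand setting. All 58735 genes had the identifier, position and strand of GENCODE 29 (Ensembl 94, GRCh38), which gave transcripts.

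Genes were kept by filterByExpr (16577), scaled by TMM and tested with edgeR 4.0.16 (R 4.3.3), two-sided, no covariate, Benjamini-Hochberg adjusted over all genes, threshold 0.05. SE is the absolute log2 change over the root of the F statistic, and intervals use the fit's degrees of freedom. The test and its intervals were checked on simulated data. Coding sequences were aligned with mafft 7.526. Alternatives used DESeq2 1.42.0, limma 3.58.1 (log2 CPM, prior count 2), other scalings and filters, the replicate block, each library left out and neighbouring counts added. Members and lists were chosen with earlier results of these data known. By rule, up to 4 genes past the threshold were named per list, or the 2 most abundant where none passed, and overlapping genes from 1% of a member's counts. LRP5 and CTNNB1 were named outside that rule. The 3 genes most like CSNK1A1 were named by Pearson r. Replicate libraries differed by more than counting noise (chi-square per degree of freedom 2.01 to 2.32), so each was counted as 1 sample, which does not show that they are separate cultures. The result of 1 other gene list is not reported here.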

Additional observations from a re-analysis of the deposited data

How the results depend on the processing

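Values are log2 changes. No alternative brought a CK1 gene past the threshold, and 70 of 82 kept their sign. CSNK1G2, at 0.0004, became -0.0008 with RLE factors, -0.003 with library totals, -0.0008 with DESeq2, -0.0032 at a mean CPM of at least 5, and -0.0012 with antisense and pseudogene counts added (chosen after the data were seen). Leaving out each library in turn gave a range for CSNK1G2 from -0.0442 to 0.0354, for CSNK1D from -0.0034 to 0.0487, for CSNK1E from -0.0278 to 0.0534 and for CSNK1G3 from -0.0027 to 0.0464. CSNK2A2 ranged from -0.0146 to 0.05 and SMO from -0.0119 to 0.0466. ITGB5 passed throughout (-0.2919 to -0.2504 with 1 library left out). Of 11 list genes named by the rule and past the threshold, 6 passed in all 13 alternatives, and the others are given above. The count of 2495 called genes was 1914 by DESeq2, 2477 by limma-trend and 1939 to 2183 with 1 library left out. Libraries with the same number gave no sign of pairing (correlation of their deviations -0.0208, -0.102 and -0.166), and the replicate block called 2303 genes and changed no call of a CK1 gene. The family sum moved by less than its spread. At this depth, with 3 libraries per group, changes inside -13.35% to 8.708% for CSNK1G1 and -7.486% to 12.68% for CSNK1G3 were not resolved.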
